A study of Rattus norvegicus with 9 samples.

Results

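Rab genes encode a large family of small GTPases of the Ras type, and here they were followed in the rat adrenal medulla after immobilization stress. A gene was a member if a probe set of the array was annotated to exactly 1 gene symbol made of Rab, a number and at most 1 letter from a to d. This found 56 Rab genes on 97 probe sets, among 14217 genes with such a probe set in the whole table. Where a gene had several, the brightest one on average was used. Of the 56 genes, 52 passed the filter on dim probe sets and were tested with 11287 genes in all, while Rab19, Rab25, Rab37 and Rab39a were too dim.

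A Rab protein acts as a switch. In its GTP-bound form it sits on the surface of 1 kind of membrane and recruits effectors, the motors, tethers and fusion factors that move a vesicle to its target. Guanine nucleotide exchange factors (GEFs) switch it on, GTPase-activating proteins (GAPs) switch it off, and GDP dissociation inhibitors carry the inactive protein through the cytosol. Chromaffin cells of the adrenal medulla store adrenaline and noradrenaline in dense-core granules, and Rab3 and Rab27 proteins on such granules are known for their part in docking and release.

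The samples were 9 arrays of medullary RNA from adult rats of 280 to 320 g. The 3 Control arrays came from unstressed rats, the 3 arrays named 1XIMO from rats immobilized in 1 session of 2 h, and the 3 named 6XIMO from rats immobilized for 2 h daily over 6 days, and tissue was dissected when the final session had ended. The labels name no strain, sex or genotype, they do not say whether each array holds a separate animal, and some fields name mouse or brain although the organism is given as rat. The p-values therefore measure the spread between these arrays, which may be technical.

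Levels are given as log2(value + 16) of the deposited intensity, so a difference of 1 is a doubling, slightly understated for dim genes. Differences carry the standard error (SE) of 1 limma fit of all 9 arrays, and a gene was called at a Benjamini-Hochberg adjusted p under 0.05 over the 11287 genes. The 6XIMO arrays stood apart from the others. The actin 3′/5′ signal ratio, which rises as labelled RNA gets shorter, was 231, 6.11 and 8.87 in 6XIMO replicates 1 to 3, against 1.45 to 2.15 in Control and 1.57 to 1.99 in 1XIMO. Over the 52 Rab genes, 6XIMO replicate 1 correlated at 0.675 to 0.761 with the other arrays, which correlated at 0.894 to 0.989 among themselves. It was the lowest of the 9 arrays for 28 of the 52 Rab genes (53.8%, against 33.3% of all genes tested) and the highest for 11 (21.2% against 30.1%). Of the chromaffin markers 7 of 8 were measured, and their summed intensity was 289396 to 446484 in Control, 274524 to 550043 in 1XIMO and 983986 to 2357888 in 6XIMO. Of the markers of adrenal cortex, the tissue that surrounds the medulla, 6 of 8 were measured, with sums of 255653 to 385966, 224401 to 560371 and 810259 to 1481481. After 6 sessions 4 of the 7 chromaffin and 5 of the 6 cortex markers were called up and 0 down, against 9.36% of all genes up. Not every marker rose: Slc18a1, of chromaffin cells, read 13.90, 14.29 and 13.50 in Control and 10.46, 14.14 and 13.74 in 6XIMO. Cyp11b1, of the cortex, read 15.44, 14.50 and 15.13 in Control and 10.99, 15.04 and 15.60 in 6XIMO. No listed marker was at 0, and 1 of 4 brain neuron markers passed the filter. The part of RNA quality and of cell make-up in the Rab values was not tested, and in bulk tissue fewer cells of a type and less RNA per cell cannot be told apart. Many results that involve 6XIMO are given with and without replicate 1, and others only with all 3 of its arrays. Removal of replicate 1 also narrows the shared error of the other comparison.

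In the comparison of 1 session with no stress, Rab33a, Rab29 and Rab3a fell and no Rab gene rose (Rab3c and Rab20 were above Control at an unadjusted p under 0.05). These 3 of 52 genes make 5.77%, and of all genes tested 9.51% were called in this comparison (4.2% up, 5.31% down). Without 6XIMO replicate 1 in the fit, the same 3 were called among 10 (4 up, 6 down; 19.2%, against 30% of all genes, 9.77% up and 20.2% down). Same-numbered arrays of Control and 1XIMO deviated from their group means together, though the labels do not explain the numbers. With the number as a block in a fit of these groups alone 16 Rab genes were called, 7 up and 9 down (30.8%, against 38.5% of all genes). All 3 arrays of 1XIMO lay above all Control arrays for 7 Rab genes and below them for 10, against 13.4% and 29.5% of all genes. The median log2 change of the 52 genes was -0.17 (all genes -0.13), with 17 genes above 0 and 35 below. The count of 3 went down to 1 without Control replicate 2 or 3 or any 1 of the 1XIMO arrays. In those fits, in that order, 3.7%, 3.19%, 5.31%, 4.09% and 3.56% of all genes were called.

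After 6 daily sessions, Rab8b and Rab3c rose, and Rab33a, Rab29, Rab3a, Rab9a, Rab11b, Rab1b, Rab18, Rab5b and Rab40b fell. These 11 genes are 21.2% of the 52, against 24.3% of all genes called. Upward calls were 3.85% of the Rab genes and 9.36% of all genes, and downward calls 17.3% and 14.9%. All 6XIMO arrays lay above all Control arrays for 3 Rab genes and below them for 15, against 14.9% and 26.6% of all genes. With 6XIMO replicate 1 left out these counts were 15 and 19, against 25.3% and 42.2%. The median change was -0.21 (all genes -0.23), with 18 Rab genes above 0 and 34 below. Without that array it was -0.07 (all genes -0.22), with 22 above 0 and 30 below. Without 6XIMO replicate 1 all 11 calls were kept, and 23 genes were called (12 up, 11 down; 44.2%, against 48.2% of all genes, 17.9% up and 30.3% down). The count was 6 without Control replicate 2 (13.1% of all genes) and 7 without Control replicate 1 or 3 (15.3% and 12.2%). With the array medians made equal, in place of the equal trimmed means of the deposited table, 0 Rab genes were called after 1 session and 1, Rab8b, after 6, against 1.99% and 6.1% of all genes. The median intensity was 1582.68 in 6XIMO replicate 1 and 592.636 to 1053.27 in the other arrays. Equal medians were not tried without 6XIMO replicate 1. Both comparisons use the same Control arrays, so their values are set side by side below and not counted as separate support.

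**Figure D1:**
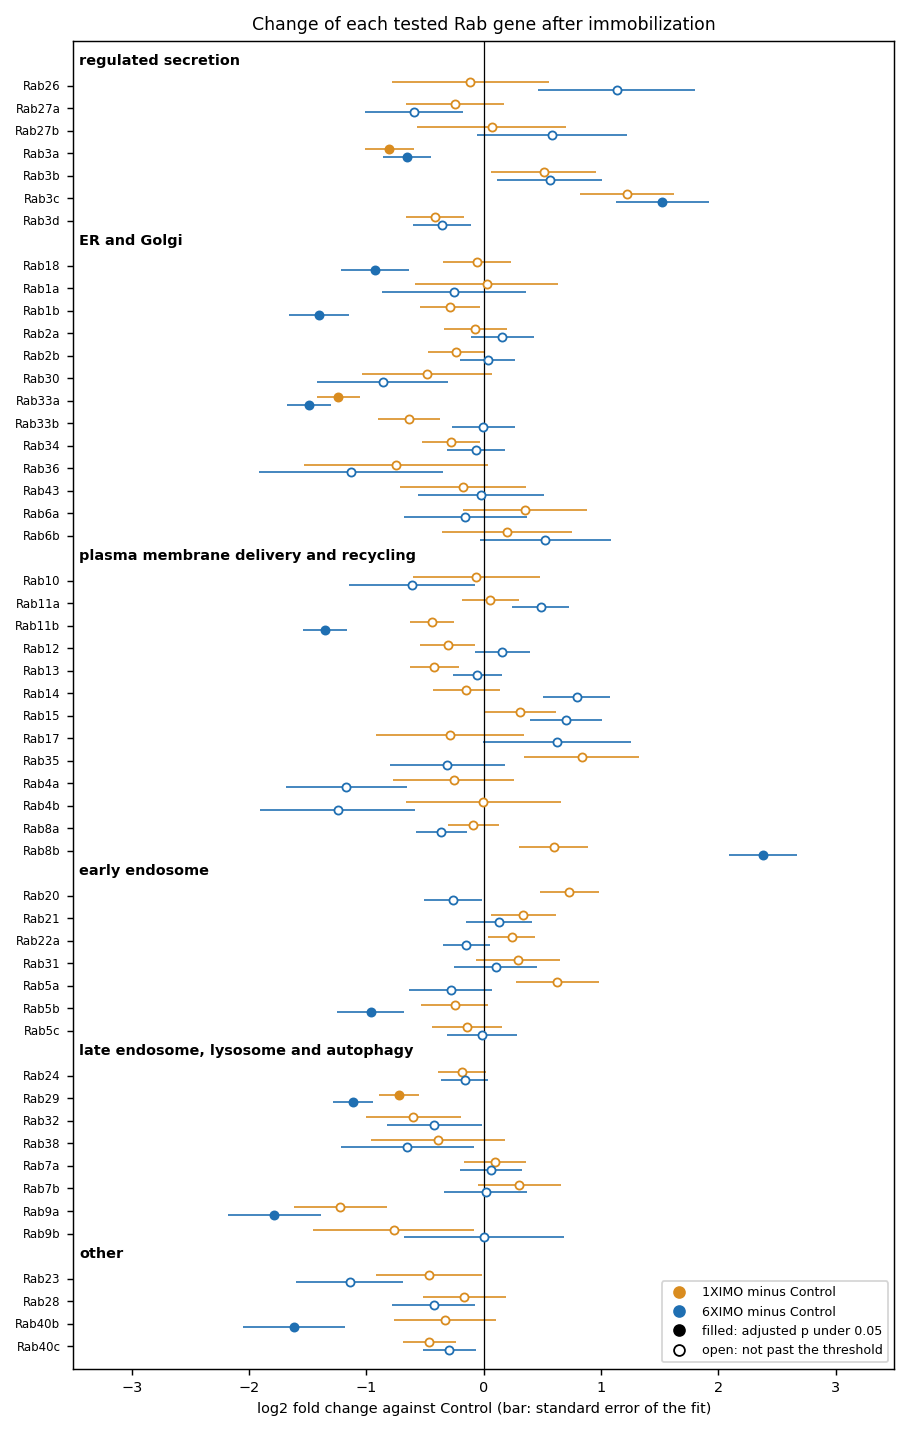
Log2 fold change against Control of the 52 tested Rab genes after 1 session (orange) and 6 sessions (blue), grouped by the main membrane each Rab protein works on; points are differences of 3-array means, bars are standard errors of the limma fit, and filled points passed an adjusted p of 0.05. In the 6-session comparison 2 filled points lie above 0 and 9 below, and in the 1-session comparison 3 lie below.

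Of the 7 tested Rab genes of regulated secretion, 1 fell after 1 session, and 1 rose and 1 fell after 6 sessions. Each is 14.3% of the group, against 5.31% of all genes down after 1 session, and 9.36% up and 14.9% down after 6. This group and those below were not tested against all genes. Rab3c, a Rab3 protein of neurons and endocrine cells, read 11.46, 11.37 and 10.79 in Control, 11.92, 12.77 and 12.60 in 1XIMO and 11.83, 13.39 and 12.98 in 6XIMO. Every stressed array lay above every Control array. The change after 6 sessions was 1.52 ± 0.40 (SE, n = 3 per group; 2.87-fold; limma adjusted p = 0.0215), and without 6XIMO replicate 1 it was 1.97 ± 0.28 (adjusted p = 0.000341). After 1 session Rab3c was 1.22 ± 0.40 above Control and missed the threshold (limma adjusted p = 0.0899), but passed it without 6XIMO replicate 1 (adjusted p = 0.00419). The call after 6 sessions was lost without Control replicate 2 (adjusted p = 0.0567) or 3 (0.088) and without 6XIMO replicate 2 (0.0588) or 3 (0.0601), and over all settings tried the adjusted p ran from 5.39e-06 to 0.178.

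Rab3a, the most studied Rab of synaptic vesicles and dense-core granules, read 11.95, 12.20 and 11.72 in Control, 11.07, 11.27 and 11.12 in 1XIMO and 11.49, 11.36 and 11.06 in 6XIMO. Its levels in both stressed groups lay below all Control arrays. It fell by 0.80 on the log2 scale after 1 session (SE 0.21; limma adjusted p = 0.0378) and by 0.65 after 6 (SE 0.21; adjusted p = 0.0449; -0.75 without 6XIMO replicate 1). These calls stood near the threshold: leaving out any 1 Control or 1XIMO array ended both, with adjusted p from 0.076 to 0.17 in the first and 0.0608 to 0.167 in the second. Leaving out 6XIMO replicate 2 ended both as well (0.0527 and 0.0731), and leaving out replicate 3 ended the second (0.126). Over all settings tried the adjusted p ran from 0.00139 to 0.574 after 1 session and from 0.000588 to 0.483 after 6. The other Rab3a probe set above the filter also lay below Control without overlap in both stressed groups, with changes of -0.96 and -1.80.

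Rab3b, also a Rab3 protein of secretory vesicles, read 12.97, 13.77 and 13.12 in Control, 13.30, 14.23 and 13.86 in 1XIMO and 12.76, 14.49 and 14.29 in 6XIMO. The groups overlapped, and 6XIMO replicate 1 was the lowest of the 9 arrays. The change after 6 sessions was 0.56 ± 0.45 (limma adjusted p = 0.395), and 1.11 ± 0.28 without that array (adjusted p = 0.00903). After 1 session it was 0.51 ± 0.45 (limma adjusted p = 0.632).

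Rab3d, the Rab3 protein of exocrine granules, read 11.20, 11.86 and 11.84 in Control, 11.06, 11.46 and 11.13 in 1XIMO and 11.11, 11.16 and 11.57 in 6XIMO. The 3 groups overlapped. Its changes were -0.42 ± 0.25 and -0.35 ± 0.25 (limma adjusted p = 0.391 and 0.33), and the latter was -0.27 without 6XIMO replicate 1.

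Rab27a, which docks granules at the plasma membrane, read 12.92, 13.07 and 12.46 in Control, 12.35, 12.68 and 12.69 in 1XIMO and 11.09, 12.97 and 12.60 in 6XIMO. The groups overlapped, and 6XIMO replicate 1 was the lowest array. Its changes were -0.24 ± 0.42 and -0.60 ± 0.42 (limma adjusted p = 0.867 and 0.332), and the latter was -0.03 without 6XIMO replicate 1. Its close relative Rab27b read 8.53, 8.93 and 8.82 in Control, 9.20, 8.60 and 8.68 in 1XIMO and 10.89, 8.40 and 8.74 in 6XIMO. Here the groups overlapped and 6XIMO replicate 1 was the highest array. The Rab27b changes were 0.07 ± 0.64 and 0.58 ± 0.64, and the latter was -0.19 without that array. For Rab26, a Rab of secretory and synaptic vesicles, the change after 6 sessions was 1.13 ± 0.67 (limma adjusted p = 0.246) and rested on the same array, at 11.08 against 9.20 and 8.62 in 6XIMO replicates 2 and 3.

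**Figure D2:**
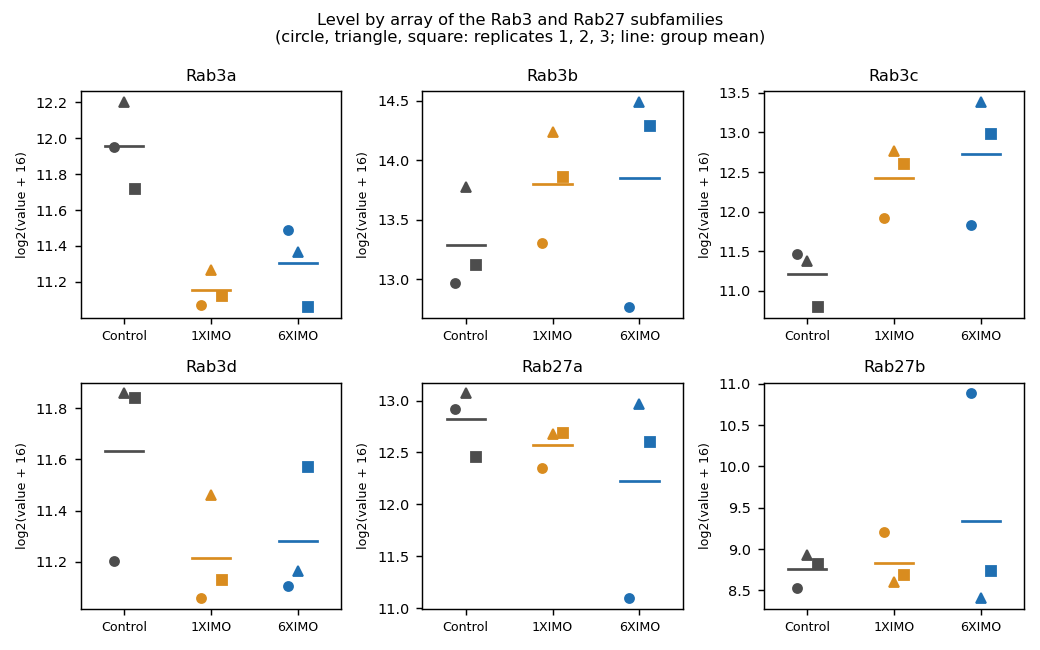
Level, log2(value + 16), of the Rab3 and Rab27 genes on each array of Control, 1XIMO and 6XIMO; circles, triangles and squares are replicates 1, 2 and 3 and lines are group means. Rab3c lies at 11.83 or above in every stressed array and at 11.46 or below in Control, Rab3a lies at 11.49 or below in every stressed array and at 11.72 or above in Control, and 6XIMO replicate 1 departs from the other 6XIMO arrays for Rab3b, Rab27a and Rab27b.

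The 250 bases before the RefSeq transcript start are shown for the Rab3 paralogs that differ in their values, Rab3a, Rab3b and Rab3c, and for Rab8b, which had the largest change of the 52 genes after 6 sessions. All are on the GRCr8 assembly of the rat genome and read 5′ to 3′ along the gene's strand. Capitals mark each TGACG on either strand (CGTCA on the printed one), the core of the cAMP response element that CREB-type factors bind, and would mark TGAGTCA, the AP-1 site, which these windows do not hold. Rab3a lies on chr16:18722274-18722523 (minus strand), Rab3b on chr5:128858841-128859090 (plus strand), Rab3c on chr2:43575944-43576193 (minus strand) and Rab8b on chr8:76417549-76417798 (minus strand).
Rab3a: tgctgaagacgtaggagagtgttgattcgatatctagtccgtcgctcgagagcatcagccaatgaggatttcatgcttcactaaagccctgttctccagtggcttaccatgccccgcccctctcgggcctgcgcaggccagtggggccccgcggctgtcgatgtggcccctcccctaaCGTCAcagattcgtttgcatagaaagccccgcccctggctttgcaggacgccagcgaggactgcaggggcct
Rab3b: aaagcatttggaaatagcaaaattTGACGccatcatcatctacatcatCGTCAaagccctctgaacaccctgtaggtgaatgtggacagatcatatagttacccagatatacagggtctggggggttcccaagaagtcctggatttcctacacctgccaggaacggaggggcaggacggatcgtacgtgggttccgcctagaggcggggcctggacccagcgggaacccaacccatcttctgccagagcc
Rab3c: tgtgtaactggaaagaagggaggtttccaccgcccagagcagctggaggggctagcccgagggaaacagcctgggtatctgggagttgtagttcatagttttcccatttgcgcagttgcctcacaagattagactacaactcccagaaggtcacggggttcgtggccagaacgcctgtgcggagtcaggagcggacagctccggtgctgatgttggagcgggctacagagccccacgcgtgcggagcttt
Rab8b: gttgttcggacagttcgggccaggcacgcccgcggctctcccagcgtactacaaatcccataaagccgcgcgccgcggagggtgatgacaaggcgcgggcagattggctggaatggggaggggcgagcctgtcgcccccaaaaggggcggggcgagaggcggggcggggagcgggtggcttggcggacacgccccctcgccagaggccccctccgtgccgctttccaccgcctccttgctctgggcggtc
The Rab3a window holds TGACG 1 time, the Rab3b window 2 times, and the Rab3c and Rab8b windows 0 times. Of the 56 Rab genes, 45 matched a promoter in the RefSeq table, and 16 of these (35.6%) held TGACG, against 18.2% of the 33469 promoters of this length. The whole palindrome TGACGTCA, which contains TGACG, was in 1 Rab promoter (Rab25; 1.59% of all promoters). TGAGTCA was in 4 of 45 (Rab27b, Rab34, Rab4b and Rab9a; 8.89% against 4.05%), and the E-box CACGTG was in 3 of 45 (Rab21, Rab31 and Rab5a; 6.67% against 5.59%). The Rab shares count genes with a match in any of their promoters, while the other shares count every promoter listed. Those promoters were not limited to genes on the array or matched in base composition, and the differences were not tested. These matches describe letters in a window, and factor binding was not measured.

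Of the 13 tested Rab genes of the endoplasmic reticulum and Golgi, 1 fell after 1 session and 3 after 6 sessions, and none rose in either comparison (0 also at an unadjusted p under 0.05). The falls were 7.69% and 23.1% of the group, against 5.31% and 14.9% of all genes. Upward calls were 4.2% and 9.36% of all genes. Rab33a, a Rab of Golgi-derived vesicles expressed in neural and immune cells, read 13.09, 12.99 and 13.12 in Control, 11.57, 12.02 and 11.89 in 1XIMO and 11.61, 11.72 and 11.41 in 6XIMO. The highest stressed array, at 12.02, lay below the lowest Control array, at 12.99. It fell by 1.24 after 1 session (SE 0.19; 2.36-fold lower; limma adjusted p = 0.00317) and by 1.49 after 6 (SE 0.19; 2.81-fold lower; adjusted p = 0.000847). Both calls held without any single array, including 6XIMO replicate 1 (-1.24 and -1.50). Only equal array medians ended them, and the adjusted p ran from 1.05e-05 to 0.308 and from 6.07e-07 to 0.101 over all settings.

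Rab1b, which drives vesicles from the endoplasmic reticulum to the Golgi, read 13.45, 13.07 and 13.06 in Control, 13.22, 12.75 and 12.76 in 1XIMO and 11.32, 11.86 and 12.20 in 6XIMO. The 6XIMO arrays lay below all others, while Control and 1XIMO overlapped. It fell by 1.40 after 6 sessions (SE 0.26; limma adjusted p = 0.00481; -1.16 without 6XIMO replicate 1) and was at -0.29 after 1 (adjusted p = 0.641). The probe set used carries the suffix that Affymetrix gives to sets with some probes able to match other transcripts. Rab1a and Rab1b are paralogs, and whether Rab1a or other transcripts add to the signal of this probe set was not tested. Without 6XIMO replicate 1 the Rab1a probe set was at 0.62 after 6 sessions and this Rab1b probe set at -1.16. Of the 4 Rab1b probe sets above the filter, 3 lay below Control without overlap after 6 sessions, at -1.40, -2.16 and -0.94, and 1 overlapped Control, at -0.40. With 6XIMO replicate 1 left out they were at -1.16, -0.87, -1.01 and 0.04.

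Rab18, a Rab of the endoplasmic reticulum and of lipid droplets, read 13.86, 13.49 and 13.85 in Control, 13.91, 13.59 and 13.52 in 1XIMO and 12.11, 13.21 and 13.09 in 6XIMO. Only the 6XIMO arrays lay below Control, replicate 1 furthest. It fell by 0.93 after 6 sessions (SE 0.29; limma adjusted p = 0.0434), and by 0.58 without that array (SE 0.16; adjusted p = 0.0143). The call was lost without any 1 Control or 1XIMO array, with adjusted p from 0.0576 to 0.134 (range over all settings 0.00145 to 0.516). Among the 10 other members of this group, which passed in neither comparison, changes after 6 sessions ran from -1.13 for Rab36 to 0.53 for Rab6b. Both were near 0 without 6XIMO replicate 1, at -0.07 and 0.01. Without that array 3 of the 13 genes passed upwards (Rab1a, Rab2a and Rab6a) and 3 downwards, each 23.1%, against 17.9% and 30.3% of all genes. A second Rab2a probe set lay above Control without overlap after 6 sessions, at 1.03 (1.00 without that array). The Rab2a probe set used was at 0.16 (0.46 without it).

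Of the 13 tested Rab genes of delivery to the plasma membrane and recycling, none was called after 1 session (at an unadjusted p under 0.05 there was 1, Rab11b), and 1 rose and 1 fell after 6. Among all genes 9.51% were called after 1 session. After 6 sessions 9.36% rose and 14.9% fell, against 7.69% each in this group. Rab8b, which carries vesicles from the trans-Golgi network and recycling endosomes to the plasma membrane, read 11.05, 12.18 and 11.16 in Control, 11.78, 12.24 and 12.17 in 1XIMO and 13.86, 13.96 and 13.72 in 6XIMO. The 6XIMO arrays lay above all others and close together, and Control and 1XIMO overlapped. Rab8b rose by 2.38 ± 0.29 after 6 sessions (5.20-fold; limma adjusted p = 0.000835), and by 2.37 without 6XIMO replicate 1, while after 1 session it was at 0.60 ± 0.29 (adjusted p = 0.273). This rise was seen on 1 of 3 probe sets: the others were at -0.15 and -0.90 after 6 sessions, both overlapping Control, and at 0.21 and -0.53 without 6XIMO replicate 1. Other settings, 20 per gene, left out each array in turn or changed the filter, scaling, offset, probe set rule or design. With the mean of all 3 probe sets the change was 0.44 (limma adjusted p = 0.214), the only setting in which the call was lost.

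Rab11b, a Rab of recycling endosomes, read 14.28, 14.35 and 14.42 in Control, 13.77, 14.04 and 13.90 in 1XIMO and 13.25, 12.75 and 12.98 in 6XIMO. The 3 groups did not overlap, and the order of levels was Control, 1XIMO, 6XIMO. It fell by 1.35 after 6 sessions (SE 0.19; 2.55-fold lower; limma adjusted p = 0.00156), and its other probe set was at -2.47 without overlap (-1.38 without 6XIMO replicate 1). After 1 session it was at -0.44 ± 0.19 (adjusted p = 0.203), and passed the threshold without 6XIMO replicate 1 (adjusted p = 0.0192). Its paralog Rab11a read 14.23, 14.25 and 14.27 in Control, 14.28, 14.32 and 14.32 in 1XIMO and 14.19, 15.01 and 15.01 in 6XIMO. The Rab11a change after 6 sessions was 0.48 ± 0.24 (limma adjusted p = 0.177), and 0.76 ± 0.11 without 6XIMO replicate 1 (adjusted p = 0.000516). Its other probe set was at -0.85 (-0.43 without that array), below Control without overlap, so the probe sets of Rab11a pointed in different directions.

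Of the 7 tested Rab genes of early endosomes, none was called after 1 session (0 of 7 with 1 at an unadjusted p under 0.05, Rab20), and 1 fell after 6. Among all genes 9.51% were called after 1 session, and 14.9% fell after 6, against 14.3% of this group. Rab5b, which governs fusion of early endosomes, read 13.79, 13.96 and 13.94 in Control, 13.50, 13.74 and 13.70 in 1XIMO and 12.20, 13.35 and 13.25 in 6XIMO. The 3 groups did not overlap. It fell by 0.96 after 6 sessions (SE 0.29; limma adjusted p = 0.0364), and by 0.60 without 6XIMO replicate 1 (SE 0.13; adjusted p = 0.00378). The call was lost without any 1 Control or 1XIMO array, with adjusted p from 0.053 to 0.108 (range over all settings 0.000282 to 0.508). Both other Rab5b probe sets above the filter lay below Control without overlap after 6 sessions, at -2.70 and -1.85.

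Rab20, a Rab of endosomes and phagosomes that is induced by hypoxia in several cell types, read 11.05, 11.12 and 11.29 in Control, 11.57, 11.83 and 12.25 in 1XIMO and 10.49, 11.05 and 11.13 in 6XIMO. The 1XIMO arrays lay above all others. Its change after 1 session was 0.73 ± 0.25 (limma adjusted p = 0.109; 0.0123 without 6XIMO replicate 1), and its other probe sets were at 0.52 and -0.02, both overlapping Control. Rab5a, the best known early endosome Rab, read 12.77, 12.62 and 12.61 in Control, 13.15, 13.30 and 13.43 in 1XIMO and 11.40, 12.82 and 12.93 in 6XIMO. Its 1XIMO arrays were the highest of the 9. The Rab5a change after 1 session was 0.63 ± 0.35 (limma adjusted p = 0.36; 0.00296 without 6XIMO replicate 1), and its other probe set was at 0.07.

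Of the 8 tested Rab genes of late endosomes, lysosomes and autophagy, 1 fell after 1 session and 2 after 6. These are 12.5% and 25% of the group, against 5.31% and 14.9% of all genes. Rab29, which works at the trans-Golgi network and on stressed lysosomes and recruits the kinase Lrrk2, read 12.86, 12.99 and 13.23 in Control, 12.31, 12.26 and 12.35 in 1XIMO and 11.95, 11.85 and 11.95 in 6XIMO. The 3 groups were separate and tight. It fell by 0.72 after 1 session (SE 0.17; limma adjusted p = 0.0252) and by 1.11 after 6 (SE 0.17; 2.16-fold lower; adjusted p = 0.00205; -1.13 without 6XIMO replicate 1). The first call was lost without Control replicate 2 (adjusted p = 0.091) or 3 (0.135) and without any 1 of the 1XIMO arrays (0.0731 to 0.11), and the second held without any single array. The ranges over all settings were 0.000103 to 0.798 and 4.51e-06 to 0.229.

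Rab9a, which returns mannose 6-phosphate receptors from late endosomes to the Golgi, read 13.26, 12.90 and 13.21 in Control, 11.91, 11.57 and 12.23 in 1XIMO and 10.29, 11.76 and 11.96 in 6XIMO. All 6 stressed arrays lay below Control. It fell by 1.79 after 6 sessions (SE 0.40; 3.45-fold lower; limma adjusted p = 0.0111), and by 1.26 without 6XIMO replicate 1 (SE 0.20; adjusted p = 0.000666). After 1 session it was at -1.22 ± 0.40 and missed the threshold (limma adjusted p = 0.089), which it passed without 6XIMO replicate 1 (adjusted p = 0.000686). Rab32 and Rab38, which build melanosomes and other lysosome-related organelles, were at -0.42 ± 0.41 and -0.65 ± 0.57 after 6 sessions. Without 6XIMO replicate 1 they were at -0.86 and -1.42 and passed (limma adjusted p = 0.0348 and 0.00209).

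Of the 4 other tested members, Rab40b, which joins a ubiquitin ligase through its SOCS box, fell after 6 sessions. It read 10.43, 10.66 and 9.81 in Control, 9.90, 9.96 and 10.04 in 1XIMO and 7.77, 9.17 and 9.10 in 6XIMO. The 6XIMO arrays lay below all others. It fell by 1.62 (SE 0.43; limma adjusted p = 0.0241), and by 1.16 without 6XIMO replicate 1 (SE 0.28; adjusted p = 0.00669). The call was lost without Control replicate 1 (adjusted p = 0.0802) or 2 (0.102), and the range over its settings was 0.00224 to 0.218. With quantile normalization Rab40b was at -1.51 (limma adjusted p = 0.167), and at -0.57 (0.135) with 6XIMO replicate 1 also left out. A fit of only the groups compared lost the call as well (0.084). Rab23, Rab28 and Rab40c were called in neither comparison.

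**Figure D3:**
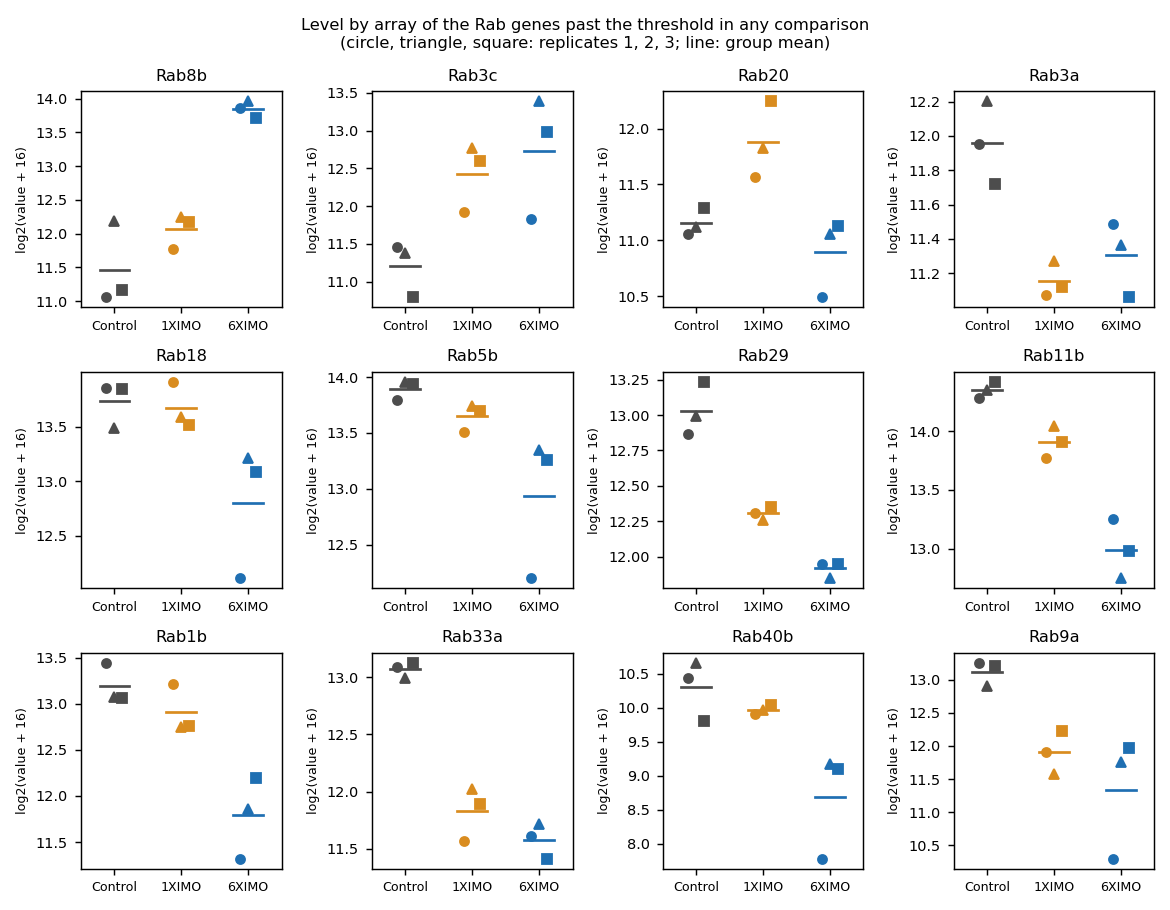
Level, log2(value + 16), on each array of the Rab genes past the threshold in any of the 3 comparisons, ordered by the change after 6 sessions; symbols are replicates 1, 2 and 3 and lines are group means, and each panel has its own level axis. Rab8b is high on all 6XIMO arrays (13.72 to 13.96), Rab33a and Rab29 are low on all stressed arrays, and 6XIMO replicate 1 lies furthest from Control for Rab9a, Rab18, Rab5b and Rab40b.

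The direct comparison of 6 sessions with 1 tests whether the groups' responses differ. Rab8b was higher after 6 sessions than after 1, by 1.78 ± 0.29 (limma adjusted p = 0.0117). Rab11b (-0.91 ± 0.19, adjusted p = 0.0209), Rab1b (-1.12 ± 0.26, 0.0276) and Rab20 (-0.99 ± 0.25, 0.0373) were lower. These 4 calls, 1 up and 3 down, are 7.69% of the 52 Rab genes, against 9.84% of all genes (5.21% up, 4.63% down). The 6XIMO arrays lay above all 1XIMO arrays for 4 Rab genes and below them for 11, against 16.1% and 17.7% of all genes, and without replicate 1 for 16 and 14, against 28.5% and 31.3%. Without 6XIMO replicate 1 these 4 were kept among 13 (5 up, 8 down; 25%, against 32.4% of all genes, 15.3% up and 17% down), and the median over the 52 genes moved from -0.20 to 0.10 (all genes from -0.08 to -0.05). No Rab gene was called without 1XIMO replicate 2 or without 1XIMO replicate 3, where 0.0709% and 0% of all genes were called. The limma adjusted p in those fits was 0.0576 and 0.0599 for Rab8b and 0.0944 and 0.0885 for Rab11b. For Rab1b it was 0.0841 and 0.0892, and for Rab20 0.115 and 0.154. Rab33a, Rab29 and Rab3a, called in both comparisons with Control, were at -0.25 ± 0.19, -0.39 ± 0.17 and 0.15 ± 0.21 here (limma adjusted p = 0.409, 0.161 and 0.679).

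More than 1 probe set above the filter was present for 22 of the 52 genes, 54 probe sets in all. All probe sets of a gene changed in the same direction for 13 of the 22 genes after 1 session and for 13 after 6, and for 9 after 6 sessions without 6XIMO replicate 1. Rab33a, Rab29, Rab9a, Rab18 and Rab3c had 1 probe set each, so their changes had no second reading on the array. Of the called genes with several, Rab3a, Rab11b, Rab5b and Rab1b had all probe sets above the filter below 0 after 6 sessions, while those of Rab8b differed in direction. For Rab20 the 3 probe sets were at -0.99, -0.65 and -0.66 between 6 sessions and 1, and without 6XIMO replicate 1 at -0.79, -1.28 and -1.10.

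**Figure D4:**
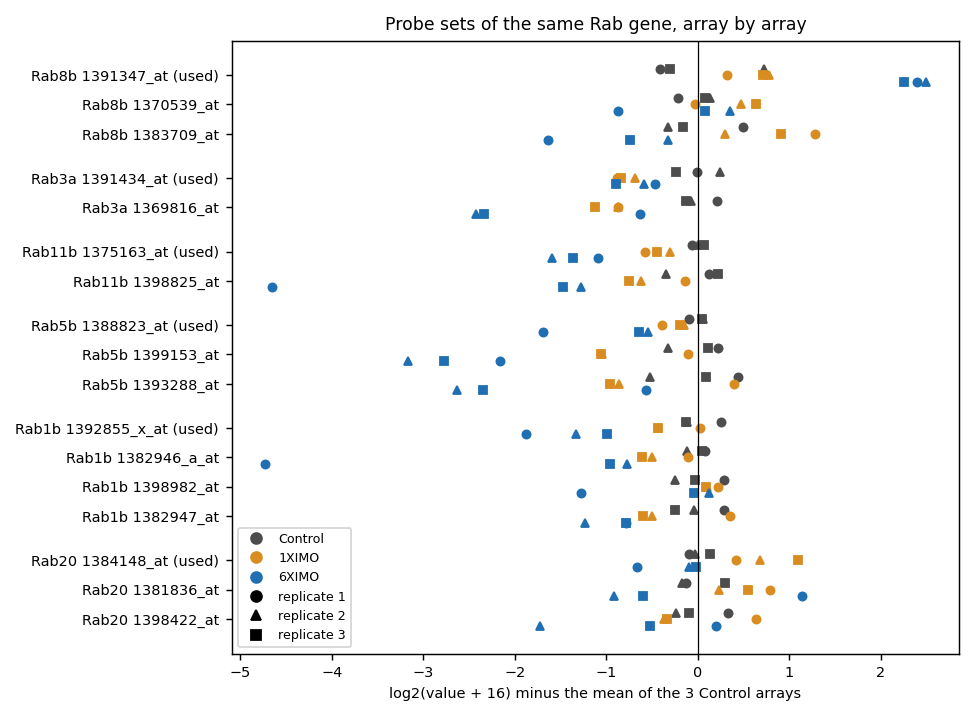
Level on each array of the probe sets above the filter of 6 called Rab genes that have several, as log2(value + 16) minus the mean of that probe set's 3 Control arrays; colours are groups and symbols are replicates. For Rab8b the probe set used is high on all 6XIMO arrays (mean 2.38 above Control) while the others are not (-0.15 and -0.90), and for Rab3a, Rab11b and Rab5b every probe set is below Control on all 6XIMO arrays.

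The Rab genes varied more among the 6XIMO arrays than in the other groups. The median SD over 3 arrays was 0.20 in Control, 0.22 in 1XIMO and 0.60 in 6XIMO, against 0.21, 0.21 and 0.55 over all genes. 6XIMO replicates 2 and 3 differed by a median of 0.21 over the Rab genes, and most for Rab30 (0.98). With replicates 2 and 3 alone against Control, Rab3b, Rab11a, Rab14, Rab15, Rab1a, Rab2a, Rab31, Rab35, Rab6a and Rab7a also passed upwards, with changes from 0.36 for Rab7a to 1.11 for Rab3b. On the same arrays other probe sets above the filter were below 0 for Rab6a (-1.03), Rab31 (-0.54), Rab11a (-0.43), Rab15 (-0.29 and -0.12) and Rab7a (-0.08). Those of Rab14 were at 0.34, -0.67 and -0.56, and that of Rab2a was at 1.00. Rab3b, Rab1a and Rab35 had 1 probe set each. Rab1a and Rab2a act between the endoplasmic reticulum and Golgi, Rab6a within the Golgi, Rab14 and Rab31 between the trans-Golgi network and endosomes, Rab15 and Rab35 in recycling, and Rab7a at late endosomes. Rab1a, Rab35 and Rab6a were below 0 with all 3 arrays (-0.25, -0.31 and -0.16) and above 0 without replicate 1 (0.62, 0.41 and 0.62).

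**Figure D5:**
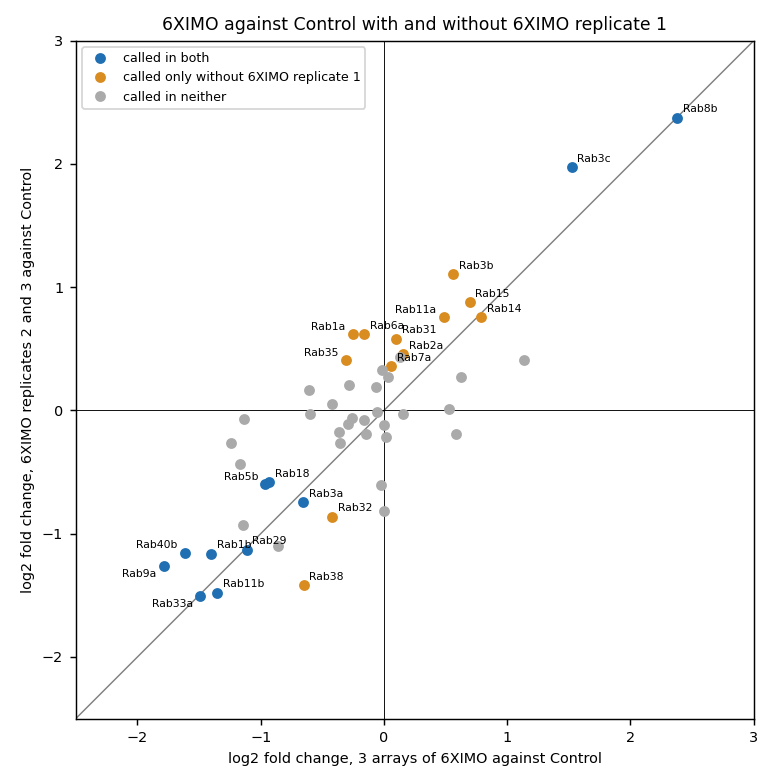
Log2 fold change of the 52 Rab genes after 6 sessions against Control, with all 3 6XIMO arrays (horizontal axis) and with 6XIMO replicates 2 and 3 (vertical axis); blue genes were called both ways, orange genes only without replicate 1, and the diagonal marks equal values. The 11 blue genes keep their direction, and 10 of the 12 orange genes lie above 0 on the vertical axis.

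The Rab cycle needs other proteins, and of a list of 126 GEFs, GAPs, effectors and carriers 100 were tested. After 1 session 2 rose and 12 fell (14%, against 9.51% of all genes; median change -0.23). After 6 sessions 5 rose and 22 fell (27%, against 24.3%; median -0.32). Between 6 sessions and 1, 3 were higher and 8 lower (11%, against 9.84%; median -0.10). Without 6XIMO replicate 1 the counts were 9 up and 28 down (37%, against 30% of all genes), 12 up and 36 down (48%, against 48.2%), and 9 up and 21 down (30%, against 32.4%), and the median between sessions was -0.06. A fit of Control and 1XIMO alone, blocked on the replicate number, called 45 after 1 session, against 38.5% of all genes. The counts went down to 4 without Control replicate 3 or 1XIMO replicate 3 in the first comparison (all genes 3.19% and 3.56%). They went down to 16 without Control replicate 3 in the second (12.2%), and to 0 without 1XIMO replicate 2 or 3 in the third (0.0709% and 0%). By class, downward calls after 6 sessions were 12 of 39 effectors, 6 of 31 GAPs, 4 of 25 GEFs and 0 of 5 carriers and prenylation factors, beside 14.9% of all genes, and the classes were not tested against each other.

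Among activators of Rab proteins, Hps4, a subunit of the complex that switches on Rab32 and Rab38, read 9.16, 10.09 and 10.13 in Control, 12.01, 12.32 and 12.25 in 1XIMO and 12.17, 11.55 and 11.74 in 6XIMO. It rose by 2.40 ± 0.30 after 1 session (limma adjusted p = 0.00107) and by 2.03 ± 0.30 after 6 (adjusted p = 0.0018), and the first call held in all 20 other settings. The second was lost with the mean of all probe sets, at 1.26 (limma adjusted p = 0.0793). Rin2 and Als2cl, both Rab5 activators, fell after 1 session by 1.48 (SE 0.23, limma adjusted p = 0.00418) and 1.35 (SE 0.25, adjusted p = 0.0104). With the mean of all probe sets Rin2 was at -1.24 and its call was lost (limma adjusted p = 0.0895). Als2cl fell by 2.69 after 6 sessions (SE 0.25; adjusted p = 0.000248) and was lower after 6 sessions than after 1 (-1.34, adjusted p = 0.0157). The Als2cl call after 1 session was lost without Control replicate 2 or 3 or 1XIMO replicate 2 or 3 (0.0522 to 0.0634), and the one between sessions without any 1 of the 1XIMO arrays (0.0511 to 0.0713).

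Among GAPs, Tbc1d16, which acts on Rab4, rose by 2.40 ± 0.42 after 6 sessions (limma adjusted p = 0.00384; 1.85 without 6XIMO replicate 1). Tbc1d8 rose by 0.91 ± 0.18 after 1 session (limma adjusted p = 0.0134), a call lost without Control replicate 1 or 3 or 1XIMO replicate 2 or 3 (0.0501 to 0.0707). With the mean of all probe sets it was lost too, at 0.64 (limma adjusted p = 0.461). Tbc1d12 rose by 1.38 ± 0.45 after 6 sessions (limma adjusted p = 0.0485; 0.76 without 6XIMO replicate 1) and was 1.80 ± 0.45 higher after 6 sessions than after 1 (adjusted p = 0.0344; 1.18 without that array). Tbc1d14, which regulates recycling endosomes in autophagy, was lower after 6 sessions than after 1 (-1.70 ± 0.42, limma adjusted p = 0.0344; -1.10 without 6XIMO replicate 1). The calls of Tbc1d12, and that of Tbc1d14 between sessions, were lost without any 1 Control or 1XIMO array (adjusted p from 0.0568 to 0.139 for Tbc1d12 and from 0.0599 to 0.124 for Tbc1d14).

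Among effectors, Appl2, which binds Rab5 on signalling endosomes, read 13.39, 12.47 and 13.20 in Control, 11.84, 11.60 and 11.65 in 1XIMO and 8.57, 10.44 and 9.40 in 6XIMO. It fell by 3.55 after 6 sessions (SE 0.43; 11.7-fold lower; limma adjusted p = 0.000715) in all 20 other settings too, and was lower after 6 sessions than after 1 (-2.23, adjusted p = 0.0161; 0.0582 to 0.0698 without any 1 of the 1XIMO arrays). Sytl2, a synaptotagmin-like partner of Rab27, read 11.49, 11.37 and 11.60 in Control, 10.81, 10.39 and 10.49 in 1XIMO and 9.26, 8.94 and 8.97 in 6XIMO. It fell by 2.43 after 6 sessions (SE 0.24; limma adjusted p = 0.00029) and was lower after 6 sessions than after 1 (-1.51, adjusted p = 0.0113; 0.0576 and 0.0599 without 1XIMO replicate 2 or 3). Sytl4, known as granuphilin, which links Rab27 and Rab3 on granules to the fusion machinery, fell by 2.74 after 6 sessions (SE 0.73; limma adjusted p = 0.024), a call lost without Control replicate 1 (0.0947) or 3 (0.0792). Its levels were 12.01, 10.23 and 11.23 in Control and 6.96, 8.66 and 9.64 in 6XIMO, so replicate 1 was the lowest. With quantile normalization and 6XIMO replicate 1 left out, Sytl4 was at -1.43 (limma adjusted p = 0.0955). Rilpl1 and Fyco1, the latter a link from Rab7 to kinesin, fell after 1 session by 1.47 (SE 0.26; limma adjusted p = 0.00734) and 1.18 (SE 0.27; 0.0247). The Fyco1 call was lost without any 1 Control or 1XIMO array (0.0657 to 0.115). Micall2, an effector of Rab13 and Rab8 proteins, was 1.68 ± 0.32 higher after 6 sessions than after 1 (limma adjusted p = 0.0165; 0.066 and 0.0784 without 1XIMO replicate 2 or 3).

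Gdi2, a GDP dissociation inhibitor that extracts Rab proteins from membranes, read 14.56, 14.67 and 14.71 in Control, 14.61, 14.76 and 14.62 in 1XIMO and 16.005, 15.70 and 15.80 in 6XIMO. The 6XIMO arrays lay above all others, and Control and 1XIMO overlapped. Gdi2 rose by 1.19 ± 0.20 after 6 sessions (limma adjusted p = 0.00322) and was 1.17 ± 0.20 higher after 6 sessions than after 1 (adjusted p = 0.0122; 0.0595 and 0.0599 without 1XIMO replicate 2 or 3). Averaged over its probe sets, Gdi2 was at -0.08 after 6 sessions (limma adjusted p = 0.895), and the difference between sessions was 0.0008. With quantile normalization the change after 6 sessions was 0.45 (limma adjusted p = 0.0773), and 0.29 (0.0673) with 6XIMO replicate 1 also left out. With equal array medians neither Gdi2 call passed (limma adjusted p = 0.0789 and 0.187).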

How the data were processed

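The values are linear intensities of Affymetrix probe sets as the authors deposited them. Per the labels, RNA was extracted with a Stratagene kit, then labelled and run by Affymetrix. Means trimmed by 2% at each end were 2500.57 to 2501.03 on all 9 arrays, so arrays had been brought to 1 common mean before deposit. How probes were summarised and background removed is not given in the sources used here. GEO's platform annotation gave 1 symbol to 20826 of 31099 probe sets, several to 436, and 57 were controls.

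On the log2(value + 16) scale, probe sets in the lowest 30% by mean level (under 8.51) were dropped, and the brightest probe set on average stood for each gene. The 3 comparisons came from 1 fit with limma 3.58.1 in R 4.3.3 (lmFit, eBayes with trend, 6 residual degrees of freedom, two-sided), tested on simulated data. The members, lists and tests were chosen with earlier results of these data known. Named with values were all called Rab genes, the Rab3 and Rab27 genes, and per comparison and direction up to 4 called partner genes without overlap. Rab20, Rab5a, Rab11a, Rab26, Rab32, Rab38 and others without a call were named after their values were seen. Same-numbered arrays of Control and 1XIMO deviated from their group means together (correlations of 0.508, 0.36 and 0.25 over genes). The number was therefore used as a block in alternative fits only. The main fit had no block, and the labels do not explain the numbers. The number of arrays limits the precision.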

Additional observations from a re-analysis of the deposited data

Results flagged for a closer look

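For 4 Rab genes the test of 6 sessions against 1 showed that the responses of these groups differed. The difference, 6XIMO minus 1XIMO on the log2 scale, was 1.78 for Rab8b (limma adjusted p = 0.0117), -0.91 for Rab11b (adjusted p = 0.0209), -1.12 for Rab1b (0.0276) and -0.99 for Rab20 (0.0373). Rab20 stood above Control after 1 session (0.73) and below it after 6 (-0.26), with the call resting on this difference alone. For Rab8b the difference was seen on 1 of 3 probe sets. No Rab gene was called in a fit of only these groups, with equal array medians, or without 1XIMO replicate 2 or 3. In those settings 0.0266%, 0.532%, 0.0709% and 0% of all genes were called. Of 20 other settings, the call was kept in 15 for Rab8b, 12 for Rab11b, 10 for Rab1b and 7 for Rab20. The actin 3′/5′ ratio differed between the same groups (1.57 to 1.99 in 1XIMO, 6.11 to 231 in 6XIMO), and its part in these differences was not tested.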

How the results depend on the processing

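Of the 18 calls of Rab genes in the 3 comparisons, 6 were lost in only 1 setting, and 17 kept their direction in all settings run. The exception was Rab8b between 6 sessions and 1, at -0.15 with the mean of all probe sets, and by the same rule the partner gene Gdi2 was at -0.0757 after 6 sessions. Counts of called Rab genes (3 after 1 session, 11 after 6, 4 between them) were 0, 1 and 0 with median centring, 17, 26 and 24 with array weights, a fit that stopped before it converged, and 9, 6 and 0 in fits of only the groups compared. Of all genes, 1.99%, 6.1% and 0.532% were called with median centring, 39.9%, 58.1% and 49.5% with array weights, and 28.4%, 13.4% and 0.0266% in fits of only the groups compared. Quantile normalization gave 1 between sessions (5.54% of all genes) and, without 6XIMO replicate 1, 12 after 1 session (30.2%) and 8 between sessions (22.2%). The mean of all probe sets gave 2 between sessions (9.14% of all genes). Leaving out 1 array gave 1 to 10, 6 to 23 and 0 to 13, in each case highest without 6XIMO replicate 1. In the same fits 3.19% to 30%, 12.2% to 48.2% and 0% to 32.4% of all genes were called. Counts of partner genes (14, 27 and 11) were 2, 7 and 2 with median centring, 51, 65 and 48 with array weights, 37, 16 and 0 in fits of only the groups compared, and 4 to 37, 16 to 48 and 0 to 30 with 1 array left out. Quantile normalization gave 6 partner genes after 1 session and 3 between sessions, and 38, 41 and 24 without 6XIMO replicate 1. The shares of all genes there were 7.15% and 5.54%, and 30.2%, 35.1% and 22.2%. Without a filter, with 50% of probe sets left out or with offsets of 1 or 64, all counts stayed within 1.5 times. Median centring moved the median change of all genes after 1 session from -0.13 to -0.0002, and upward calls of all genes from 474 of 1073 to 158 of 225.

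With the replicate block, 3, 12 and 4 Rab genes were called, beside 8.66%, 24.3% and 8.35% of all genes. Of these Rab genes 3, 10 and 3 were among the calls made without the block. Rab18 after 6 sessions and Rab1b between sessions were lost. Between same-numbered arrays of 6XIMO and the other groups the correlations were 0.0602 to 0.158, and 7 of 9 arrays correlated best with their own number. Deviations in 6XIMO were taken from a mean that includes the outlying replicate 1, so these values cannot decide whether the numbers pair 6XIMO. Chosen after seeing the data, the replicate block in a fit of Control and 1XIMO gave 16 Rab genes and 45 partner genes after 1 session. With 6XIMO replicate 1 left out the block gave 17 and 47. These fits called 38.5% and 38.4% of all genes. Calls that turned direction after 6 sessions with array weights were Rab1a at 0.72, Rab35 at 0.41, Rab5c at 0.48 and Rab6a at 0.55, and between sessions Rab1a at 0.77 and Rab7a at 0.33. Without 6XIMO replicate 1, Rab1a at 0.62, Rab35 at 0.41 (0.56 with quantile normalization) and Rab6a at 0.62 turned after 6 sessions; with any 1 array left out these genes ranged from -0.74, -0.67 and -0.59 to those values. The cause was not tested. Dim members such as Rab17, Rab27b and Rab30 lie near the filter, where changes are least precise.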
